A study of Drosophila melanogaster with 55 samples.

Results

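The 5 Argonaute genes of Drosophila melanogaster, AGO1, AGO2, AGO3, piwi and aub, were examined among 18277 annotated genes in chromatin immunoprecipitation sequencing (ChIP-seq) of adult fly heads. They were taken by gene name, and the rule uses no measured value, although it was set with earlier results of these data known. For each gene, the percent of its span with 2 kb on either side that lay inside islands of enrichment was computed in each of 33 island lists. An island is a run of windows in which the ChIP reads exceeded the input, and islands with a score of at least 200 were used, the minimum the study itself applied.

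The heads came from adults 1 to 2 weeks old. HP1 was immunoprecipitated from the double mutant Top3b26;AGO2 1-1-7 (2 libraries), the single mutants Top3b26 (3) and AGO2 1-1-7 (2), and the control strain w1118 (3). H3K9me2 and H3K9me3 were measured in Top3b26 and w1118 (3 libraries each). FLAG was immunoprecipitated from FLAG-AGO2 flies (2 libraries) and from untagged w1118 (1), and Top3b from w1118 (3). A complementation set held 1 HP1 library each for Top3b26;Act>Top3bWT, Top3b26;Act>Top3bY332F, Top3b26;Act>Top3bdRGG, Top3b26 and w1118. Top3b26 is a mutant of the topoisomerase gene Top3b made by remobilising a P element, in the w1118 background. AGO2 1-1-7 is a null allele made with CRISPR, which removes part of the AGO2 promoter and a few bases of an exon, so one of the 5 genes described here is itself altered in that line and in the double mutant. The transgenes were driven by Act-Gal4, a ubiquitous driver. They encode wild-type Top3b, a form with a mutated catalytic tyrosine (Y332F) and a form without the RGG box (dRGG). The FLAG tag is described in the study as knocked into AGO2, while its stock list names a P-element insertion. The lists hold islands and not reads, so neither mutation could be checked in them, and they hold no expression from which the tissue could be checked.

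Argonaute proteins carry small RNAs that guide them to matching transcripts. AGO1 works mainly with microRNAs and AGO2 with small interfering RNAs. Piwi, Aub and AGO3 bind Piwi-interacting RNAs (piRNAs), mostly in the germ line, where Piwi acts in the nucleus on transposable elements and Aub and AGO3 cut their transcripts. HP1 is a chromosomal protein that binds histone H3 di- or trimethylated at lysine 9 (H3K9me2 and H3K9me3), the marks of heterochromatin.

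Of the 5 genes, only AGO3 lies in pericentric heterochromatin. In the dm6 build it spans 3L 23554593 to 23689640 on the plus strand, 135 kb in all, 308 kb inside the border of the heterochromatin of that arm as the study set it. Annotated transposable elements make up 70.5% of its span, and 9 exon blocks add up to 3182 bp. AGO2 lies at 3L 15554113 to 15561042 (plus strand), with an S element of 1732 bp, S{}AGO2[S1008], in its first intron and 2 INE-1 elements just upstream of its start site. AGO1 lies at 2R 13943387 to 13958089 (minus strand) and aub at 2L 10997819 to 11001476 (minus strand), both without an annotated element. The piwi gene lies at 2L 10982205 to 10987420 (minus strand), 10.4 kb from aub, with 3 short elements in introns. The elements are those of the reference strain, and their presence in these lines was not tested.

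The lists were not all made alike. Islands lay at least 1100 bp apart in HP1 replicates 2 and 3 of w1118 and of Top3b26, at least 800 bp in replicate 3 of Top3b and 700 bp in the other lists, a distance called the smallest gap here. HP1 lists held 3504 to 7713 islands of the minimum score. The libraries for H3K9me2 and H3K9me3 of a line share a single input. No pair of lists was identical. The study describes its HP1, H3K9me2 and H3K9me3 replicates as independent ChIP experiments. Nothing in the labels says that replicates came from separate cultures of flies, so p-values measure the spread between these libraries, which may be technical. The depth behind an island is unknown, and every comparison with w1118 HP1 uses the same 3 libraries.

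The promoter windows of AGO3, piwi and aub are shown because islands end at, cover or avoid these start sites. Each was read from the dm6 genome, 5′ to 3′ on the strand of the gene, from 250 bases before the annotated start site to 50 bases from it on. The INE-1 element in a piwi intron is shown on the strand of piwi, because the islands left at piwi in AGO2 1-1-7 lay over it. Capitals mark bases inside annotated transposable elements.

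AGO3 promoter, chr3L:23554343-23554642, plus strand: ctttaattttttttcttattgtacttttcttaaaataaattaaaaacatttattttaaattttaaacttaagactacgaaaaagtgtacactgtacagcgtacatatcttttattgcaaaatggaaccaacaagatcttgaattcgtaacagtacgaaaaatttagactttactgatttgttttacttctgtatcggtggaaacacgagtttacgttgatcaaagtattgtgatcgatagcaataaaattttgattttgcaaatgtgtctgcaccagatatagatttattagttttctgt
piwi promoter, chr2L:10987371-10987670, minus strand: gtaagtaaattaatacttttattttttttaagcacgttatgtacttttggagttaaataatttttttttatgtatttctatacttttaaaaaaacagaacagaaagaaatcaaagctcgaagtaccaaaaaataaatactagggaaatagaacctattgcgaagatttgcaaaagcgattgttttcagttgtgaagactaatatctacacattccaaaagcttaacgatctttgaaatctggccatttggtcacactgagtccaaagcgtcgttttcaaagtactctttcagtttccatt
aub promoter, chr2L:11001427-11001726, minus strand: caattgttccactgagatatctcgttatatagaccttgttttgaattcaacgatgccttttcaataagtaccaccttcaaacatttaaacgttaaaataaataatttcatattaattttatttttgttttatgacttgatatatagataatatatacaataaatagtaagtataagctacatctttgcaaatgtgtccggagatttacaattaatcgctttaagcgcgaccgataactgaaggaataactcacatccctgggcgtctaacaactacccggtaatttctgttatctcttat
INE-1 element in a piwi intron, chr2L:10984377-10984668, minus strand: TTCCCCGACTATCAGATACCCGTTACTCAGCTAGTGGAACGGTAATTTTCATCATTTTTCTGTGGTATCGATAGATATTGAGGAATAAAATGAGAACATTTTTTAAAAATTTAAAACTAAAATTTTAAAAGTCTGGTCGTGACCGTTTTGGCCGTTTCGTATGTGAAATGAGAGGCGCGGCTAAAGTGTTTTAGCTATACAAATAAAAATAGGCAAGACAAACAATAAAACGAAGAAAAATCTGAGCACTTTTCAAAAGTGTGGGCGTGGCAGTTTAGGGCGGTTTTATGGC

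These promoters are rich in A and T, with 27% G and C for AGO3, 29.7% for piwi and 30.7% for aub, beside a median of 38% over the same window of 13968 protein-coding genes. The letters TATAAA, searched on both strands, occurred in none of the 3 windows and in 45.8% of all promoters. The letters TATCGATA also occurred in none of them and in 9.36% of all promoters. A match is a run of letters and not a site.

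HP1 covered the 5 genes to very different extents in w1118 heads. Mean coverage was 68.3% ± 1.44 at AGO3, 59.8% ± 11.4 at piwi, 29.3% ± 1.58 at AGO2, 20.3% ± 19.8 at AGO1 and 0 at aub (SD, n = 3). AGO3 and piwi differed by less than the spread of piwi, and the values of AGO2 and AGO1 overlapped. The order of AGO3 and piwi depended on the flanks. Without them, piwi was the more covered, at 78.3% ± 1.11 against 68.0% ± 1.28 at AGO3 (SD, n = 3), and their values did not overlap. Among all genes, AGO3 ranked above 94.0% to 98.0% of them in the 3 w1118 libraries and piwi above 93.7% to 95.6%. Among the 169 genes wholly inside the pericentric spans, AGO3 was close to the middle, above 51.5% to 61.5% of them.

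**Figure D1:**
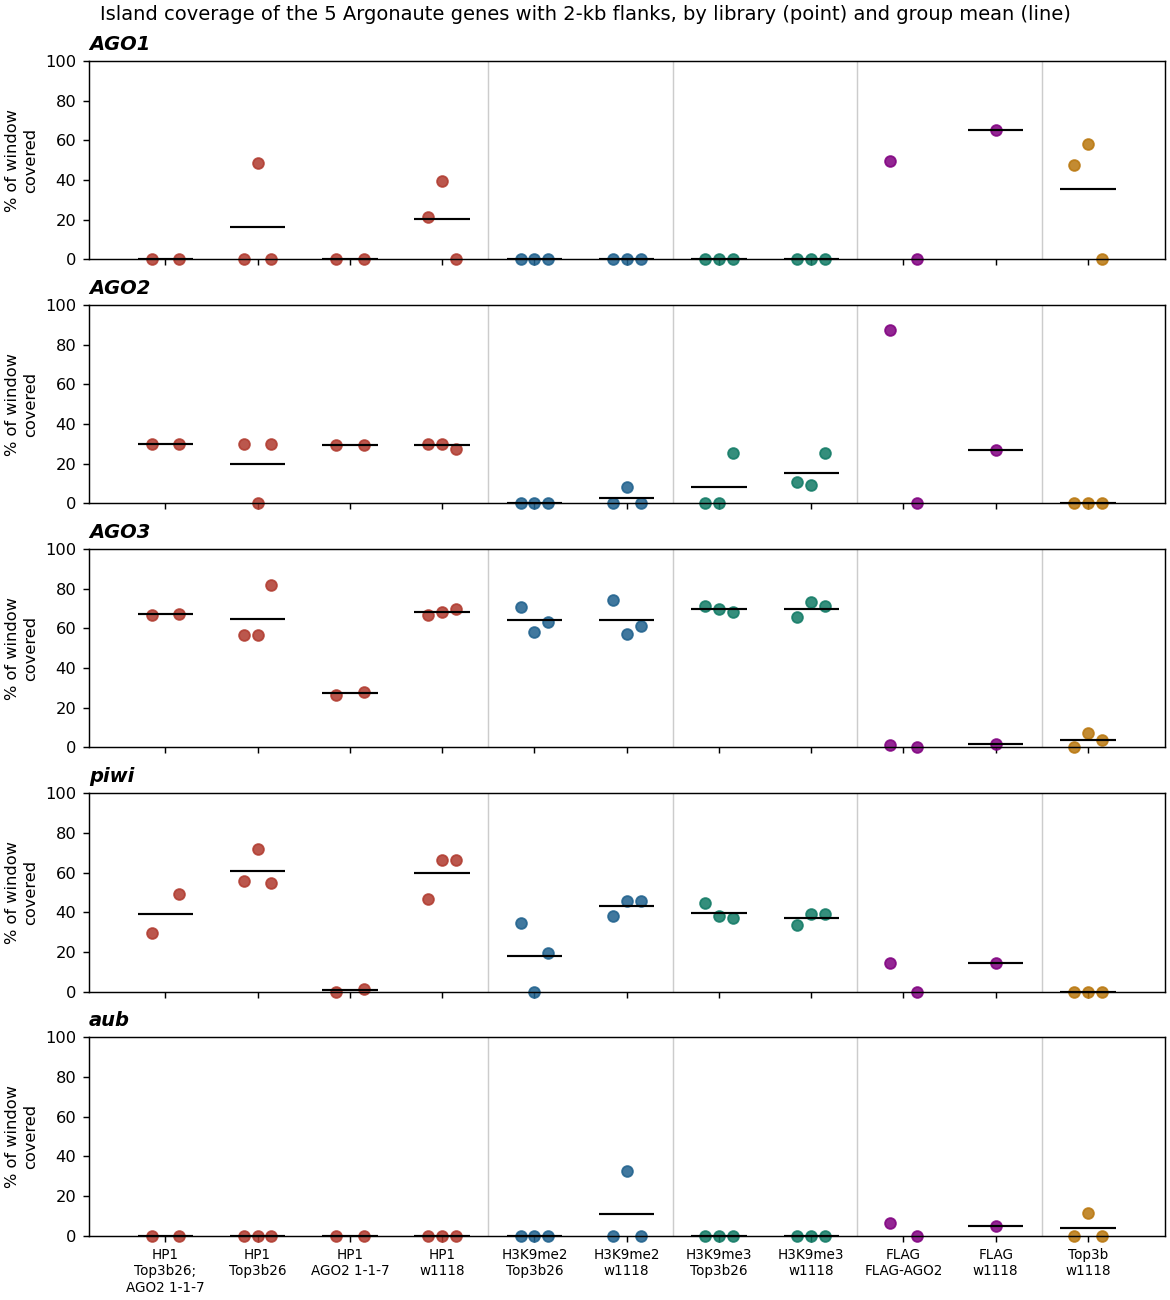
Percent of each gene with its 2-kb flanks inside islands (vertical axis, 0 to 100%) in each library (points) and the mean of each group (lines, none for FLAG-AGO2, whose lists differ in kind), for AGO1, AGO2, AGO3, piwi and aub from top to bottom. At AGO3 and piwi the 2 AGO2 1-1-7 HP1 libraries lie below those of every other line, AGO2 is near 30% in every HP1 library drawn but 1, and aub has no HP1 island.

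Across the lines, HP1 coverage at AGO3 and piwi was lowest in AGO2 1-1-7 and higher in the double mutant. At AGO3, the piRNA-binding partner of Aub, coverage was 26.7% and 28.2% in AGO2 1-1-7, against 66.8%, 68.2% and 69.7% in w1118. The lines did not overlap, and the difference was -40.8 percentage points. At piwi, coverage was 0 and 1.30% in AGO2 1-1-7, against 46.7%, 66.4% and 66.4% in w1118, a difference of -59.2 points. The exact permutation p was 0.1 for each gene (two-sided), which is the smallest that 2 libraries against 3 can give. It was 0.899 after Benjamini-Hochberg adjustment over all 9983 genes with an island in these lists. No test of this design can pass 0.05. Against w1118 replicate 1 alone, the only w1118 list with the smallest gap of the AGO2 1-1-7 lists, the differences were -39.4 points at AGO3 and -46.0 at piwi.

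HP1 coverage of AGO2 1-1-7 was called lower when every mutant library lay below every w1118 library. This held for 1703 of 9983 genes, 17.1%, and for 110 of 165 genes inside the pericentric spans, 66.7%. AGO3 and piwi were thus 2 of 5 members called lower, and for AGO3 the call was the common outcome among genes in heterochromatin. Its loss was larger than the median of those genes, -26.3 points, and 27 of the 165 pericentric genes had a difference at least as low. Over all 9983 genes, 172 had a difference at or below that of piwi and 635 at or below that of AGO3, with a median of -8.06 points. A gene can lose no more coverage than it has in w1118, so genes with little coverage there could not reach such differences. These ranks thus partly restate the high w1118 coverage of piwi and AGO3. AGO2 itself overlapped (29.3% and 29.3% in AGO2 1-1-7, against 30.2%, 30.2% and 27.4% in w1118), AGO1 overlapped, with 0 and 0 against 21.4%, 39.5% and 0, and aub had no island in either line.

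**Figure D2:**
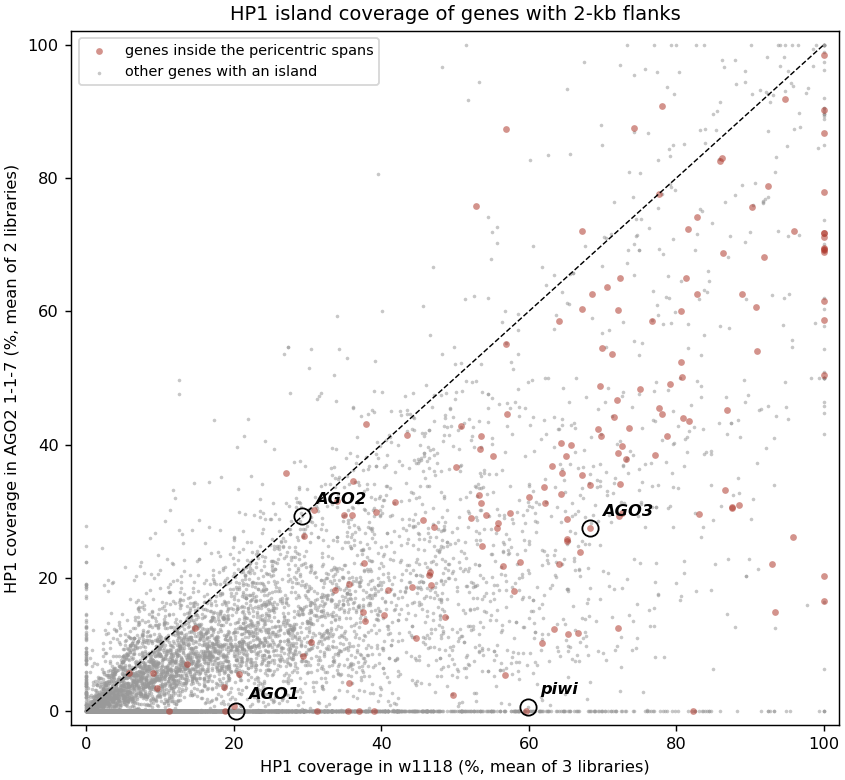
HP1 coverage of every gene with an island in AGO2 1-1-7 or w1118, with the mean of 2 AGO2 1-1-7 libraries on the vertical axis and the mean of 3 w1118 libraries on the horizontal axis (percent of the gene with 2-kb flanks). Red points are genes inside the pericentric spans, the dashed line marks equal coverage, and circles mark AGO3 (27.5% against 68.3%), piwi (0.651% against 59.8%), AGO2 (on the line) and AGO1 (0 against 20.3%).

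In the double mutant, AGO3 was covered to 67.0% and 67.4%, against 26.7% and 28.2% in AGO2 1-1-7, a difference of 39.8 points. The piwi coverage was 29.3% and 49.0% in the double mutant, against 0 and 1.30% in AGO2 1-1-7, a difference of 38.5 points. AGO2 was also called higher, by 0.915 points, which is a shift of the island by 1 window in the flank, and without flanks its coverage was 38.8% in both lines and the call was lost. The exact permutation p of 0.333 is the smallest that 2 libraries against 2 allow. Genes called higher in the double mutant numbered 1003 of 7173, 14%, and 127 of 164 pericentric genes, 77.4%, so that the call at AGO3 was again the common one for its surroundings. The same AGO2 1-1-7 libraries are the reference here and the mutant above, and the changes at AGO3 and piwi in opposite directions are not independent of each other.

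Against w1118, the double mutant overlapped at AGO3 (67.0% and 67.4%, against 66.8%, 68.2% and 69.7%; exact permutation p = 0.5) and at piwi (29.3% and 49.0%, against 46.7%, 66.4% and 66.4%; exact permutation p = 0.3). None of the 5 genes was called in this comparison, in which 11.4% of 9992 genes were called in either direction. The piwi result rests on the settings, since its difference of -20.7 points became a call of lower in 6 of 13 alternatives. It was -28.2 points at a minimum score of 400, -31.0 without flanks and -24.5 with equal numbers of islands. Leaving out 1 library at a time it ranged from -30.5 points without double mutant replicate 2, where piwi was called, to -10.8 without replicate 1, where it was not, and piwi was also called without w1118 replicate 1 (-27.2 points). Against Top3b26, the double mutant was lower at piwi (29.3% and 49.0%, against 55.6%, 71.8% and 54.5%; exact permutation p = 0.1, adjusted p = 1), one of 400 genes called lower of 10214, 3.92%. Without double mutant replicate 1 the piwi difference was -11.6 points, and without replicate 2 -31.3, in place of -21.4. At AGO3 the double mutant overlapped Top3b26, with a difference of 2.23 points. With only the lists of the shorter smallest gap, the double mutant differed from w1118 by 0.360 points at AGO3 and -7.49 at piwi, and from Top3b26 by 10.5 and -16.4 points. The effect of AGO2 1-1-7 on AGO3 was 2.23 points in the presence of Top3b26 and -40.8 points in its absence. The difference of the 2 effects was 43.0 points (exact permutation p = 0.06, adjusted p = 1 over 10737 genes). For piwi it was 37.7 points (exact permutation p = 0.27, adjusted p = 1). The 100 regroupings exchanged AGO2 1-1-7 status among libraries with Top3b26 and, separately, among those without it. The p-value therefore refers to no effect of AGO2 1-1-7 in either background. It is not a test of whether the 2 effects are equal, since an effect in 1 background alone can make it small. This test was added after the values had been seen.

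For HP1, Top3b26 on its own overlapped w1118 at each of the 5 genes. AGO3 had 56.7%, 56.5% and 81.7% in Top3b26, against 66.8%, 68.2% and 69.7% in w1118, with 2 libraries below and 1 above all controls (exact permutation p = 1). Among the lists with the shorter smallest gap, replicate 1 of each line, the difference at AGO3 was -10.1 points, and among those with the longer gap it was 0.144 points. Without Top3b26 replicate 3, the difference at AGO3 was -11.7 points in place of -3.28 and the lines no longer overlapped. Without replicate 1 or 2 it turned to 0.851 and 0.959 points. Coverage of piwi was 55.6%, 71.8% and 54.5% in Top3b26, against 46.7%, 66.4% and 66.4% in w1118. None of the members was called, and 79 of 10629 genes were, 0.743%. Same-numbered HP1 libraries of these lines deviated together, and with libraries taken as pairs 548 genes were lower and 182 higher in every pair, none of them a member.

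Within AGO3, HP1 was spread unevenly over the gene. In w1118, islands covered 73.7% of the annotated elements, 58.1% of the introns outside them and 15.7% of the exon bases (means of 3 libraries). In AGO2 1-1-7 these parts were covered to 32.6%, 18.5% and 4.12%, and in the double mutant to 75.5%, 51.6% and 9.10%. Elements and introns outside them thus both lost coverage and both had it in the double mutant. Reads that map to more than 3 places were dropped by the study, so a stretch without an island in a repeat may be a stretch without countable reads.

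All 3 w1118 libraries had HP1 over the same 83.1 kb of the AGO3 window. Of this, 37.4 kb (45.0%) was in no AGO2 1-1-7 island, and 32.7 kb of that lay in islands of both double mutant libraries. A further 24.8 kb was kept in both AGO2 1-1-7 libraries, and 24.7 kb was common to all 15 HP1 libraries of the series. Kept means only that an island of the minimum score was there. The highest island score in the AGO3 window was 2040 and 1880 in AGO2 1-1-7, against 12496, 15219 and 11937 in w1118. The longest stretch that was lost and present again was 8800 bp long, at 3L 23602601 to 23611400, within an intron and 48.0 kb from the start site, with G5, G5A and flea elements. The longest stretch kept in all HP1 libraries was 6.7 kb, at 3L 23637701 to 23644400, with rooA, diver2, Doc3 and Cr1a elements. Of the bases kept in AGO2 1-1-7, 90.9% were annotated elements, and of the bases lost 76.2% were, beside 78.8% of the 83.1 kb common to w1118. No base of the window was in every AGO2 1-1-7 library and in no w1118 library.

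**Figure D3:**
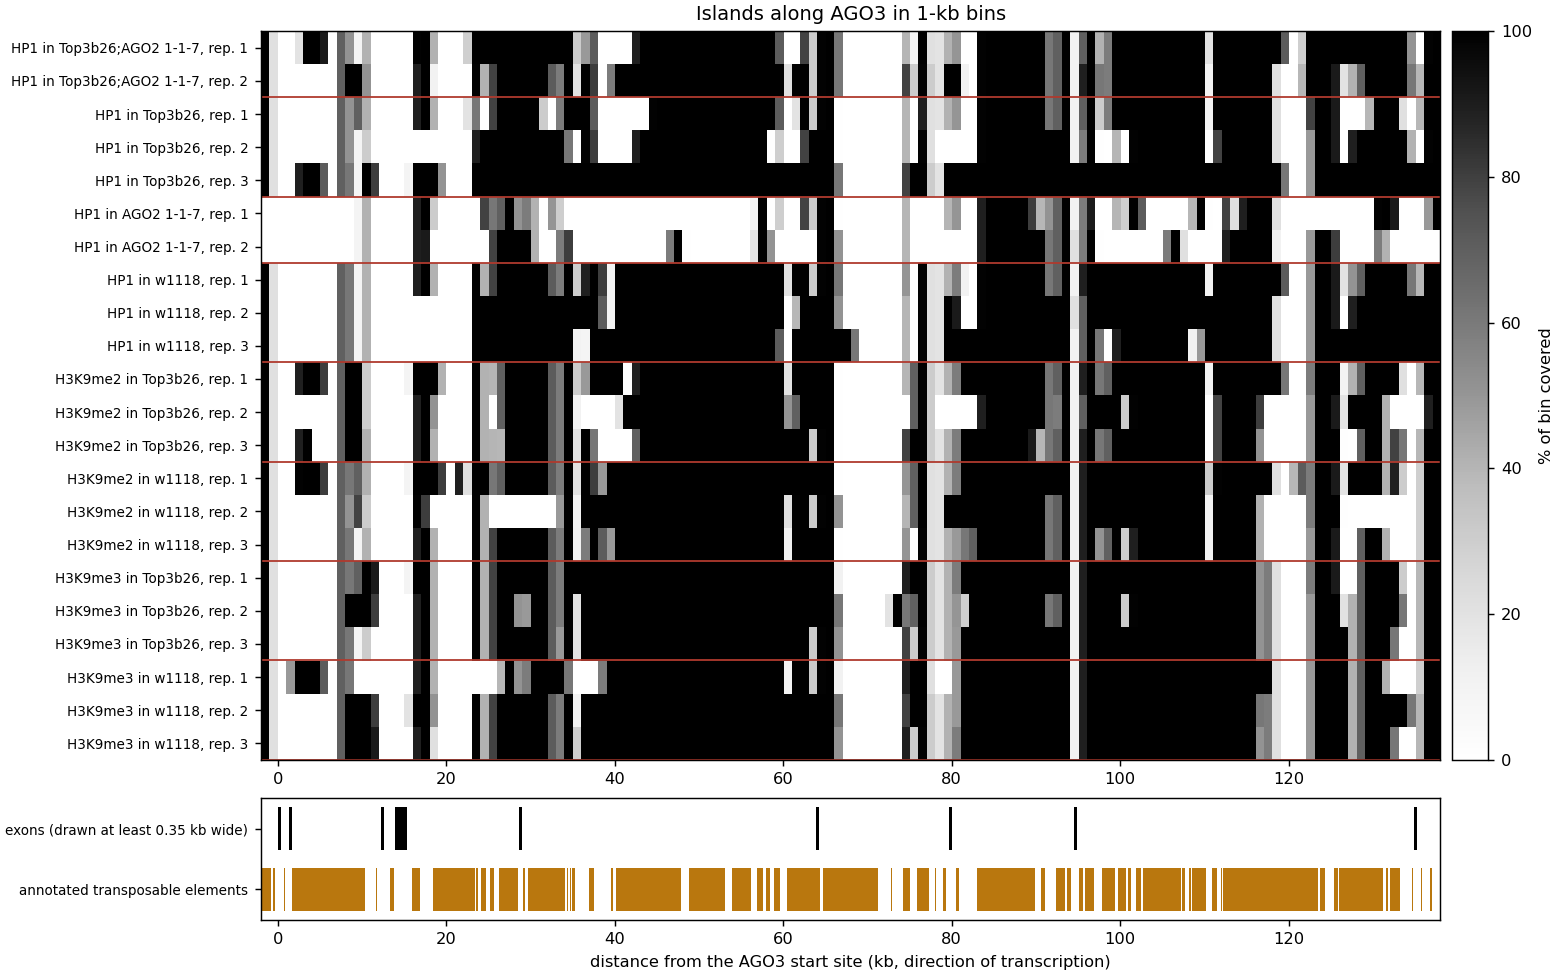
Islands along AGO3 in bins of 1 kb (grey scale, percent of the bin covered, black at 100%), with libraries as rows and the distance from the start site in kb along the horizontal axis. Exons and annotated transposable elements are drawn beneath. The 2 AGO2 1-1-7 rows are mostly white over the stretch around 48.0 kb, where the rows of the other lines are black, and all rows are white or nearly so over the first exons.

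The start of AGO3 lay in a gap between islands. In the 3 w1118 libraries an HP1 island ended 793 bp before the start site, whose promoter is printed above, and the next began 7308 bp after it, the same windows in each library. In the 2 AGO2 1-1-7 libraries the nearest island before the start site ended 5893 and 2793 bp away and the next began 9908 bp after it. In both double mutant libraries the island before the start site again ended 793 bp away. The next began 2808 bp after it in replicate 1 and 7308 bp after it in replicate 2. The gap also varied elsewhere, from 693 bp before to 2808 bp after the start site in the w1118 library of the complementation set. The first 4 exon blocks, among them the longest of 1412 bp, had no HP1, H3K9me2 or H3K9me3 island in the w1118, Top3b26, AGO2 1-1-7 and double mutant libraries. The fifth, 28.6 kb from the start site, was in an HP1 island in 3 of 3 w1118, 3 of 3 Top3b26, 1 of 2 AGO2 1-1-7 and 2 of 2 double mutant libraries.

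H3K9 methylation at AGO3 overlapped between Top3b26 and w1118. H3K9me2 coverage was 70.8%, 58.4% and 63.1% in Top3b26, against 74.3%, 57.2% and 61.1% in w1118 (difference -0.0959 points, exact permutation p = 1). H3K9me3 coverage was 71.1%, 69.9% and 68.4% in Top3b26, against 65.7%, 73.2% and 71.1% in w1118 (difference -0.216 points, exact permutation p = 1). In w1118, 60.6 kb of the AGO3 window lay in islands of all 9 libraries for HP1, H3K9me2 and H3K9me3. Of the 37.4 kb lost in AGO2 1-1-7, 32.3 kb lay in H3K9me3 islands of all 3 w1118 libraries. H3K9 methylation in AGO2 1-1-7 was not analysed here.

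The piwi gene, which encodes the nuclear piRNA-binding protein, carried HP1 and both H3K9 marks although it lies in euchromatin. In w1118 replicate 1 an HP1 island reached from 280 bp before the start site to 4019 bp into the gene, with a score of 990, above 73.9% of the islands of its list. In replicates 2 and 3 a single island reached from 2080 bp before the start site to 4119 bp into the gene, with scores of 2152 and 1490. Every intronic base of piwi was inside these islands, and 63.2% of its exon bases. The upstream flank holds CG12253 and the start of TTLL4A.

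In AGO2 1-1-7 the only island in the body of piwi was one of 400 bp, at 2L 10984301 to 10984700, with the same borders in both libraries. Its score was 191 in replicate 1 and 121 in replicate 2, under the minimum of 200. It enclosed the 292 bases of the INE-1 element printed above. The 1.30% coverage in replicate 2 came from a separate island upstream, over the start of TTLL4A. With no minimum score, piwi coverage was 4.34% and 5.64% in AGO2 1-1-7, against 48.0%, 66.4% and 66.4% in w1118, and the lines did not overlap. In the double mutant, islands over the start site (scores of 662 and 1262) stood apart from islands of 700 bp over the INE-1 element (scores of 307 and 290), and the 300-base promoter printed above was wholly inside islands in both libraries.

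H3K9me2 at piwi was lower in Top3b26, while H3K9me3 overlapped. H3K9me2 coverage was 34.7%, 0 and 19.5% in Top3b26, against 38.0%, 45.6% and 45.6% in w1118, a difference of -25.0 points (exact permutation p = 0.1, adjusted p = 1). The lines did not overlap, which held for 135 of 6907 genes, 1.95%. The value of 0 in Top3b26 replicate 2 came from an island with a score of 197 that covered 1800 bp of the gene. With no minimum score the coverage was 34.7%, 19.5% and 27.1% in Top3b26, against 38.0%, 45.6% and 45.6% in w1118, and the lines still did not overlap. Without Top3b26 replicate 2 the difference was -15.9 points. H3K9me3 coverage was 44.5%, 38.0% and 36.9% in Top3b26, against 33.6%, 39.1% and 39.1% in w1118 (exact permutation p = 0.6), and for this mark no member was called, among 7.7% of 3469 genes called in either direction. The Top3b26 H3K9me3 library of replicate 2 is described as H3K9me2 in one of its labels, while its title and antibody label give H3K9me3, and without it the difference at piwi was 3.44 points and the lines still overlapped. The difference between the marks was not tested. In all 3 w1118 libraries H3K9me2 began 20 bp after the start site of piwi, and the 2-kb flank upstream had none.

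**Figure D4:**
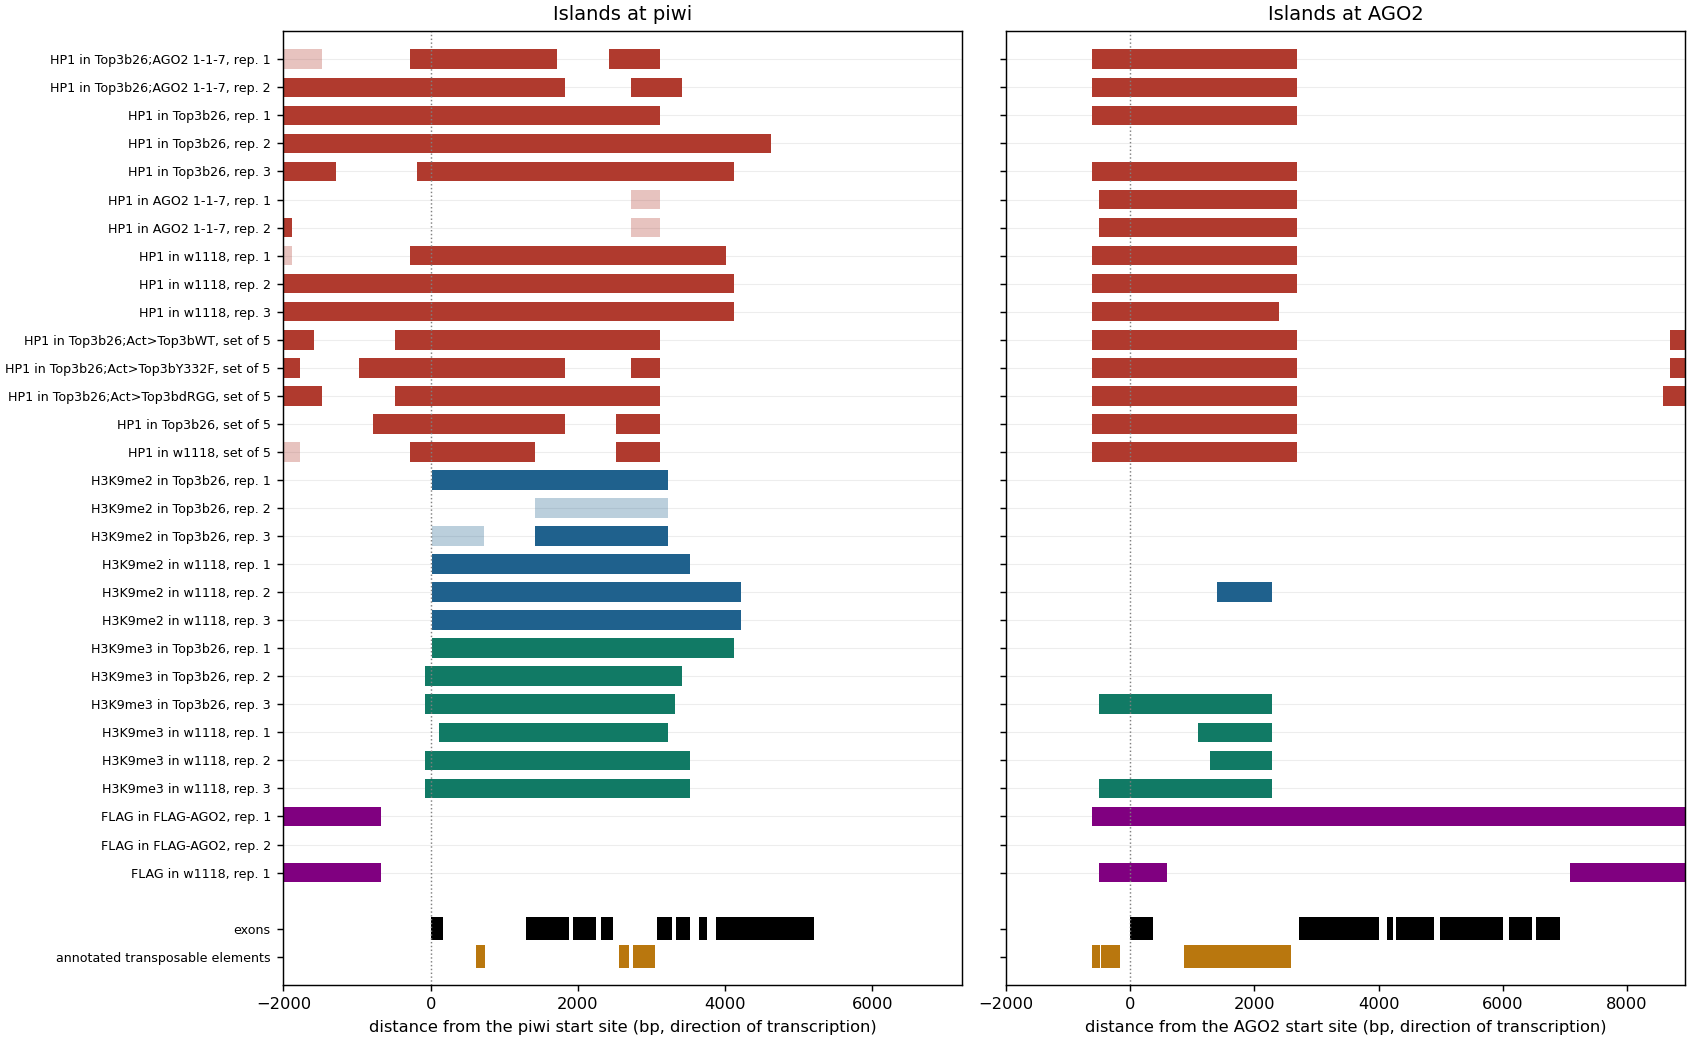
Islands at piwi (left) and AGO2 (right) in each library, drawn as bars against the distance from the start site in bp (dotted line at 0), with HP1 in red, H3K9me2 in blue, H3K9me3 in green and FLAG in purple. Pale bars have scores under 200, and exons and annotated transposable elements are drawn at the bottom. HP1 in the body of piwi shrinks to a pale bar of 400 bp over an element in both AGO2 1-1-7 libraries. The HP1 island over the start site of AGO2 keeps nearly the same borders in 14 of 15 libraries.

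The aub gene, which encodes the cytoplasmic piRNA-binding protein Aubergine, had no HP1 island in any of the 15 HP1 libraries and no H3K9me3 island in any of 6. Its single H3K9me2 island, of 2500 bp with a score of 395, was in w1118 replicate 2 and in none of the other 5 H3K9me2 libraries. HP1 thus covered piwi and not aub, 10.4 kb away, in every w1118 and Top3b26 library.

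At AGO2, the gene of the small interfering RNA pathway that is mutated in 2 of the lines, HP1 formed 1 island of nearly constant extent over the start site. Only the transgene libraries of the complementation set had another HP1 island, in the downstream flank. The island over the start site ran from 612 bp before it to 2687 bp after it, 3L 15553501 to 15556800, in w1118 replicates 1 and 2. In replicate 3 it ended 300 bp earlier. It enclosed both upstream INE-1 elements wholly or in part, the start site, and the intronic S element. Coverage was above 0 in 14 of 15 HP1 libraries, with a median of 30.2%, and was 0 in Top3b26 replicate 2. In the 2 AGO2 1-1-7 libraries the island began 100 bp later, 512 bp before the start site, and in the double mutant, which carries the same allele, it began where it did in w1118. The positions of the deletions of this allele relative to the island were not examined, so its border and coverage in these lines may take in deleted bases. Scores were 1388 and 916 in AGO2 1-1-7, above 89.1% and 91.5% of the islands of their lists, against 2125, 2318 and 1534 in w1118, above 87.3%, 84.2% and 76.1%. The AGO2 1-1-7 scores lay below those of all 3 w1118 libraries, and the lists differ in length, so the ranks are not comparable between the lines.

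H3K9me3 islands at AGO2 reached into the S element. In w1118 it covered 11.0%, 9.15% and 25.6% of the window, and in each library the island ended 2287 bp after the start site, within the element. The islands of w1118 replicates 1 and 2 lay wholly inside it, and that of replicate 3 began 512 bp before the start site. In Top3b26 the coverage was 0, 0 and 25.6%, a difference of -6.71 points (exact permutation p = 0.6), with overlapping lines. An H3K9me2 island was there in w1118 replicate 2 (8.23%) and in no other H3K9me2 library.

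AGO1, the microRNA-binding Argonaute, had HP1 islands in 3 of 15 HP1 libraries and no H3K9me2 or H3K9me3 island in any of 12. HP1 coverage was 0, 48.7% and 0 in Top3b26, against 21.4%, 39.5% and 0 in w1118, and was 0 in every AGO2 1-1-7 and double mutant library. The islands of Top3b26 replicate 2 and w1118 replicate 2 began at the same window, 2R 13952701, as the FLAG islands of FLAG-AGO2 replicate 1 and of untagged w1118. These islands enclosed the start site of AGO1 and a large part of its introns.

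FLAG coverage of the 5 genes differed between FLAG-AGO2 and the untagged flies mainly at AGO2. In FLAG-AGO2 replicate 1 a single island of 11.6 kb with a score of 4191, above 99.9% of its list, took in the whole AGO2 gene and the CG7739 gene downstream. Untagged w1118 also had an island at CG7739, with a score of 1166, which began within that gene and ended at the same window. It covered 92.1% of the downstream flank of AGO2, so the signal there was not particular to the tagged flies. Another island of untagged w1118, with a score of 759, ran from 512 bp before the AGO2 start site to 587 bp after it. An island over the start site was thus not particular to the tagged flies either. Coverage of the AGO2 window was 87.3% in FLAG-AGO2 replicate 1, against 26.9% in untagged w1118, and of the gene without flanks 100% against 8.48%. At AGO1 the order was the reverse, with 49.7% in FLAG-AGO2 replicate 1 against 65.2% in untagged flies, at piwi both had 14.3%, at AGO3 the values were 1.01% and 1.80%, and at aub 6.22% and 4.91%. The list of FLAG-AGO2 replicate 2 has a header that names its score as the difference of AGO2 and wild type, and it holds 585 islands against 9421 in replicate 1. None of its islands touched any of the 5 windows. With 1 list of each kind there was no test, and of the 5 genes only AGO2 and aub had more FLAG coverage in replicate 1 than in untagged flies.

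By percent of the window, Top3b islands in w1118 lay mainly at AGO1, in 2 of 3 libraries. The 3 libraries covered its window to 47.7%, 58.3% and 0. The islands enclosed the start site in replicates 1 and 2, with scores of 605 and 1520 above 99.2% and 99.6% of their lists. They overlapped a FLAG island of untagged flies that also enclosed the start site, and reached beyond it. AGO2 and piwi had no Top3b island with a score of at least 200 in any library. AGO3 had 0, 7.12% and 3.74% of a longer window, 139048 bp against 18703 bp at AGO1. The aub window had an island only in replicate 2 (11.4%), which lay in its flank at RpL9. The 3 lists differ in length, with 1294, 2876 and 717 islands of the minimum score.

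In the complementation set, HP1 coverage of AGO3 was 68.8% with the wild-type Top3b transgene, 60.2% with Y332F and 62.0% with dRGG, in each case in Top3b26, against 70.0% in Top3b26 and 77.1% in w1118. For piwi the values were 43.6%, 37.1% and 44.7%, against 34.7% in Top3b26 and 25.0% in w1118. AGO2 had 32.4%, 32.4% and 33.3%, against 30.2% in Top3b26 and 30.2% in w1118, and AGO1 and aub had 0 in all 5. The higher AGO2 values came from a separate island in the downstream flank, at CG7739. Without flanks the coverage of AGO2 was 38.8% in all 5. With 1 library per line there was no replicate check. The lines stood in different orders at AGO3 and piwi, and the w1118 value of this set was above the other 3 w1118 libraries at AGO3 and below them at piwi.

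Over all 33 lists, the genes whose coverage was nearest to that of AGO3 were lovit, l(2)41Ab and CG40470, with mean absolute differences of 3.36, 4.03 and 4.19 points, against a median of 51.8 points over 7793 genes. All 3 are long genes inside pericentric heterochromatin, of 434, 94.5 and 147 kb. The nearest to piwi were l(1)G0289, CG42249 and alphaTub85E, less close at 8.17, 9.30 and 10.5 points (median 30.8). For AGO2 they were CG2202, Gbeta13F and CG31550, at 7.21, 7.37 and 7.48 points (median 18.0). For AGO1 they were Fmr1, Taz and CtBP, at 1.54, 1.60 and 1.60 points (median 10.0), a closeness that rests largely on lists in which all of these genes have no island.

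Other genes of the small RNA pathways were counted in the same comparisons. Of 25 piRNA pathway genes, 18 had an HP1 island in AGO2 1-1-7 or w1118, of which 3 were called lower and none higher, with a median difference of -10.1 points beside -8.06 over all genes. The 3 of 18 were zuc, arx and daed, where 17.1% of all genes were called lower. At zuc, which encodes the nuclease that forms piRNA ends, coverage was 0 and 27.2% in AGO2 1-1-7, against 60.2%, 66.0% and 81.2% in w1118, and it was 58.3% and 69.9% in the double mutant. At arx and daed, coverage was at most 0.543% in AGO2 1-1-7, against 13.7% to 28.1% in w1118. Of 15 genes of the small interfering and microRNA pathways, 13 had an island, none was called lower and 1, gw on chromosome 4, was called higher (100% and 93.2% in AGO2 1-1-7, against 82.9%, 92.9% and 83.3% in w1118), where 0.791% of all genes were, with a median of -2.19 points. In the double mutant, zuc, qin and del were called higher against AGO2 1-1-7, 3 of 16 piRNA pathway genes with an island, beside 14% of all genes. The calls of qin and del rest on small differences. At qin coverage was 6.65% and 6.65% in the double mutant, against 0 and 6.5% in AGO2 1-1-7. At del it was 39.3% and 39.3% in the double mutant, against 34.4% and 34.4%. Against w1118, 1 of 19 (tud) was called lower, beside 10.5% of all genes, and against Top3b26, 1 of 20 (shu), beside 3.92%. No gene of the other list was called in these comparisons. For HP1 and H3K9me3 in Top3b26 against w1118, no gene of either list was called, and for H3K9me2 mael was called higher, 1 of 17 piRNA pathway genes with an island, beside 0.753% of all genes (52 of 6907). Among these, gw, qin, del, tud, shu and mael are named because the counts are small and were chosen after their values were seen.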

How the data were processed

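ChIP-seq reads of 50 bases were aligned by the authors to the dm6 genome with up to 2 mismatches, and reads with more than 3 hits were dropped. Enriched islands were called with SICER 1.1 against input, with 100-bp windows, a 600-bp gap and a false discovery rate of 5% as the study states. The lists with a smallest gap of 1100 or 800 bp differed from the others, and no separate gap setting is given for them. The submitters' processing notes name Bowtie2, FastQC, SAMtools 1.8, SICER and bedtools. The deposited lists hold the position of each island and a whole-number score, the authors' input-subtracted enrichment. The 22 input samples were not used here. Genes, exons and transposable elements were taken from annotation BDGP6.54, and every island lay within the chromosomes of the genome used. Coverage of each gene with 2-kb flanks by islands with scores of at least 200 was computed in Python 3.11.15 with numpy 2.4.6.

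Lines were compared by a two-sided exact permutation test of the difference in mean coverage for every gene with an island, with Benjamini-Hochberg adjustment over those genes. A gene was called lower or higher when the libraries of the lines did not overlap. Same-numbered HP1 libraries of Top3b26 and w1118 deviated together over genes (correlations of 0.436, 0.528 and 0.374), a pairing seen in the data and not given by the labels. The scripts were tested on simulated data. The members, the lists and the rule for named genes were chosen with earlier results of these data known. By that rule all members are named, with the 3 genes nearest in mean absolute difference for each member with over 5% mean HP1 coverage in w1118, and the 3 pathway genes with the largest differences among those called in AGO2 1-1-7 (zuc, arx and daed), and other pathway genes named were chosen after their values were seen. Alternatives were other score minima (400 or none), other flanks (none or 5 kb), equal numbers of islands, islands joined across 1100 bp, lists of the same smallest gap, a replicate block and leaving out each library. Promoter sequences of the other members are not reported here.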

Additional observations from a re-analysis of the deposited data

How the results depend on the processing

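Over the 35 results of the 5 genes in 7 comparisons, 455 alternative values were computed, and 27 had the opposite sign. No alternative gave a p under 0.05, and the smallest was 0.1. The calls of AGO3 and piwi in AGO2 1-1-7 against w1118, of both in the double mutant against AGO2 1-1-7, and of H3K9me2 at piwi kept their direction without overlap in every alternative. The call of piwi in the double mutant against Top3b26 was lost when islands were joined across 1100 bp (-16.7 points), and that of AGO2 in the double mutant against AGO2 1-1-7 without flanks (0). At piwi in the double mutant against w1118, 6 of 13 alternatives gave a call of lower where there had been none.

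The values with the opposite sign follow, in percentage points, and their cause was not tested. For HP1 in Top3b26 against w1118 they were -2.56 at piwi without flanks, 0.810 at AGO1 with 5-kb flanks, and 4.58 at AGO1, 0.144 at AGO3 and -3.26 at piwi with only the lists of the longer smallest gap, a setting added after the data were seen. For HP1 at AGO3 in the double mutant against w1118 they were 1.35 with islands joined and 0.360 with only the lists of the shorter gap. At AGO3 in Top3b26 against w1118 they were 0.216 with no minimum score and 0.144 with equal numbers of islands for H3K9me2, and 1.103 at a minimum score of 400 and 1.05 with islands joined for H3K9me3. Leaving out 1 library at a time, HP1 in Top3b26 against w1118 ranged from -20.3 to 5.53 at AGO1, -14.2 to 0.915 at AGO2, -11.7 to 0.959 at AGO3 and -5.79 to 4.09 at piwi. At AGO3 the range was -2.01 to 10.6 for the double mutant against Top3b26, -3.60 to 4.96 for H3K9me2 and -2.37 to 1.40 for H3K9me3.

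With a replicate block, HP1 at AGO3 differed by -3.28 points in Top3b26 and -40.1 in AGO2 1-1-7 against w1118. With 2 shared numbers, which drops replicate 3 of the larger group, AGO3 in the double mutant against Top3b26 (10.6), piwi in the double mutant against w1118 (-17.4), AGO1 in the double mutant and in AGO2 1-1-7 against w1118 (-30.4 each), and AGO2 in AGO2 1-1-7 against w1118 (-0.915) moved the same way in both pairs. Numbers of the H3K9 lists did not pair (correlations from -0.0253 to 0.189). Over all genes the block gave 4306 lower calls in AGO2 1-1-7 in place of 1703, and 271 in place of 135 for H3K9me2. Equal numbers of islands gave 886 in AGO2 1-1-7, and a minimum score of 400 gave 66 for H3K9me2. Genes called lower in the double mutant ranged from 617 to 3815 against w1118 (1052) and from 225 to 2076 against Top3b26 (400), and those called higher from 540 to 1394 against AGO2 1-1-7 (1003). For H3K9me3, 91 to 391 were called higher (249). Depth is unknown, and no count limits an absent island.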
